A study of Homo sapiens with 16 samples.

Results

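The imprinted DLK1-DIO3 locus on human chromosome 14 was followed here through 6 of its genes, RTL1, DLK1, MEG3, MEG8, MEG9 and DIO3, in RNA-seq libraries of the neuroblastoma cell line SK-N-BE(2), which carries amplified MYCN. The genes were taken by symbol from the deposited gene table, where they are 6 of 63187 genes, and all 6 passed the filter that left 19530 genes for testing. RTL1 was chosen by its measured rise in 1 comparison, NCTAD against WT fitted with the batch, and batch 2 was chosen by the high levels of its libraries, so no p-value is given for RTL1 or for the difference of batch 2.

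The 16 libraries fall into 4 groups of 4. The WT group is the line as labelled wild type, and the other groups were transfected with a form of HIF-2α, the oxygen-regulated transcription factor encoded by EPAS1. FL received the full-length protein, and NCTAD and cIDR received forms that the study design marks with a Δ, read here as lacking the N-CTAD and the c-IDR, although the sample labels give these names without it. All groups were kept at 21% oxygen with 10% serum, which the WT cells shared. The labels number the libraries of each group 1 to 4 and give the same number as the batch, so each batch holds 1 library of every group. The vector, the interval after transfection and any empty-vector control are not stated in the labels, so HIF-2α and transfection as such cannot be told apart in comparisons with WT. Nothing states that the replicates were separate cultures, so p-values measure the spread between these libraries.

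Library totals ran from 38.6 M to 56.1 M estimated counts (M, 1000000). EPAS1 was at 13 to 28.1 CPM (estimated counts scaled to 1000000 per library) in WT and at 1320 to 5850 CPM in the transfected libraries, as the labels say. All 10 adrenergic neuroblastoma markers examined had a mean over 1 CPM, as did 2 of 3 chromaffin, 4 of 6 mesenchymal or fibroblast and 2 of 4 Schwann markers, while none of the 4 endothelial and none of the 4 leukocyte markers did.

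The locus is a classical imprinted domain. DLK1, RTL1 and DIO3 encode proteins and are read from the paternal chromosome, whereas MEG3, MEG8 and MEG9 are long noncoding RNAs read from the maternal chromosome. The maternal transcripts also carry a large cluster of microRNAs and C/D box small nucleolar RNAs. DLK1 is a membrane protein related to the Notch ligands and is a known marker of chromaffin and neuroblastic cells. RTL1 is a capsid-like protein domesticated from a retrotransposon, and DIO3 is the deiodinase that inactivates thyroid hormone.

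In GENCODE 29 on GRCh38 the locus runs over 838 kb from the start of DLK1 to the end of DIO3. DLK1 (ENSG00000185559.16 in the deposited table) lies at chr14:100725705-100738224 on the plus strand. MEG3 (ENSG00000214548.18) follows at chr14:100779410-100861031, also on the plus strand. RTL1 (ENSG00000254656.3) is on the minus strand at chr14:100879753-100903722. MEG8 (ENSG00000225746.13) is at chr14:100894770-101038859 and overlaps the RTL1 gene on the opposite strand. MEG9 (ENSG00000223403.7) is at chr14:101064151-101072937 and DIO3 (ENSG00000197406.8) at chr14:101561351-101563452, both on the plus strand. The exons of RTL1 share 0 bases with the exons of MEG3 or MEG8 in that annotation. The deposited identifiers carry later versions than those of GENCODE 29, so this overlap was not checked for the transcript models that were counted.

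Because RTL1 is crossed by maternal transcription, the sequences that tie both strands together are shown first. The RefSeq table (GRCh38.p14) lists 98 mature microRNAs from 54 hairpin genes inside the locus, with 83 distinct seeds. Of these, 10 from 5 hairpins lie opposite the coding exon of RTL1, and all 10 are exact reverse complements of the RTL1 coding sequence, which is 4074 bases long. They are given 5′ to 3′ with the seed, bases 2 to 8, in capitals.

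hsa-miR-431-5p: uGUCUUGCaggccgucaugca
hsa-miR-431-3p: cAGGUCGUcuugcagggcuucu
hsa-miR-433-5p: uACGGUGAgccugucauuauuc
hsa-miR-433-3p: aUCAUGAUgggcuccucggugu
hsa-miR-127-5p: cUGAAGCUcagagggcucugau
hsa-miR-127-3p: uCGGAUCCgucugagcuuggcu
hsa-miR-432-5p: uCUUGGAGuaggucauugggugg
hsa-miR-432-3p: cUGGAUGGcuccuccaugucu
hsa-miR-136-5p: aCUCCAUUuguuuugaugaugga
hsa-miR-136-3p: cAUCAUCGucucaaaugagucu

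None of these 10 seeds occurs in a second microRNA of the locus. The matching stretches of the RTL1 coding sequence are shown for a pair of them, 5′ to 3′ on the RTL1 strand, with the seed match in capitals. The first begins at coding base 1733 and the second at coding base 3743, counted from 1 at the start codon.

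RTL1 opposite hsa-miR-127-3p: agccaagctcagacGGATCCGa
RTL1 opposite hsa-miR-431-5p: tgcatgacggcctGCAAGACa

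The poly(A)-selected libraries did not measure the small RNAs themselves. All 54 microRNA genes of the locus are in the deposited table and 0 of them reached 10 counts in any library, and of 47 small nucleolar RNA genes 0 did. Of the 124 annotated genes from DLK1 to DIO3, 123 are in the table and 9 reached 10 counts in at least 1 library.

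RefSeq promoters were found for MEG3, RTL1, MEG9 and DIO3. Each promoter spans 250 bases before to 50 after the RefSeq start, and 3 are shown because these members were high together in the libraries of batch 2 described below. The RefSeq starts are not all those of GENCODE 29. The printed MEG3 window and the MEG9 start lie inside the GENCODE 29 genes, which begin at chr14:100779410 and chr14:101064151. The DIO3 window crosses the GENCODE 29 start of DIO3 at chr14:101561351, while the start of RTL1 is the same in both. The letters searched on both strands were ACGTG and GCGTG, the cores of the hypoxia response element, CACGTG, which contains ACGTG, and the CRE motif TGACGTCA. Matches are in capitals, and the 250 bases before the start are printed.

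MEG3 chr14:100825858-100826107 (plus strand): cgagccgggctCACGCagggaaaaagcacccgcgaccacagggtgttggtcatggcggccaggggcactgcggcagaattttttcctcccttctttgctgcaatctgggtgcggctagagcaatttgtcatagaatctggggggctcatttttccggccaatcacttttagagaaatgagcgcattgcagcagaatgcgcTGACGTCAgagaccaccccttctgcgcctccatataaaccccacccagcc
RTL1 chr14:100903723-100903972 (minus strand): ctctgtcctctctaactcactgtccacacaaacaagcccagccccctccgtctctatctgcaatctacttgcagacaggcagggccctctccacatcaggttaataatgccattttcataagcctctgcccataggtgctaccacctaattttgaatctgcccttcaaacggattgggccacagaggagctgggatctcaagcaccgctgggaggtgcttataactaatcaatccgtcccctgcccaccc
DIO3 chr14:101561245-101561494 (plus strand): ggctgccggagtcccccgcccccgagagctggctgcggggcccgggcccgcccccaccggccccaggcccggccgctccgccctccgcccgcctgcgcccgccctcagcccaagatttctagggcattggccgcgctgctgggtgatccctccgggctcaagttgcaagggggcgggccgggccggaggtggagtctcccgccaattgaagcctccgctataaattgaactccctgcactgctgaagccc

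RefSeq lists 3 overlapping MEG3 promoters, of which the first is printed. It held 1 GCGTG, read on the other strand, and 1 TGACGTCA, while the third, at chr14:100825882-100826181, held the TGACGTCA but no GCGTG. The RTL1 promoter held none of the motifs searched. The promoters of DIO3 and MEG9 each held 1 ACGTG, read on the other strand within the 50 bases after the start.

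DIO3 chr14:101561503-101561523 (plus strand): cgccaggcCACGTcgcggttg
MEG9 chr14:101069917-101069937 (plus strand): tgcacagaCACGTtggctggt

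Among all 35116 promoters of the table, ACGTG was present in 21.4%, GCGTG in 36.5%, CACGTG in 7.3% and TGACGTCA in 1.8%. The DIO3 promoter was the richest of the 4 in G and C, at 73% with 28 CG pairs, against medians of 58.7% and 14 over all promoters. RTL1 stood at 55% with 6 CG pairs, MEG9 at 55.3% with 4 and the printed MEG3 promoter at 59% with 19. A match in letters is a description and not evidence that a factor binds.

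Per transcript length, the 6 genes differed over a wide range. DLK1 had a median of 1870 TPM (transcripts scaled for length and to 1000000 per library) over the 16 libraries, with a range of 1290 to 3730, and ranked 75 of 63187 genes by that median. MEG3 followed with a median of 724 TPM (199 to 1740). MEG8, at 34 TPM (23.8 to 50.6), and MEG9, at 31.6 TPM (7.21 to 65.5), had close medians and overlapped from 23.8 to 50.6 TPM. RTL1 had a median of 13.2 TPM (5.72 to 44), and DIO3 was lowest with a median of 0.818 TPM (0.228 to 5.06). Of the neighbours in this order, MEG3 with MEG8 and RTL1 with DIO3 did not overlap across libraries, and DLK1 with MEG3 overlapped only from 1290 to 1740 TPM. DIO3 rested on 12 to 372 counts per library, so its values carry the most counting error. Together the members took 0.236% to 0.81% of each library's counts.

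Within every batch, RTL1, DLK1 and DIO3 were higher in each transfected library than in the WT library of that batch. This held in 12 of 12 transfected libraries for each of the 3 genes, whereas 1.33% of the tested genes showed it. For RTL1 this is a description, because the WT libraries and the 4 NCTAD libraries chose it. For the separate constructs, 5.35% of the tested genes were above WT in 4 of 4 batches with FL, 8.86% with NCTAD and 10.6% with cIDR. MEG8 was higher in 11 of 12, MEG3 in 10 and MEG9 in 9. Fitted with the batch as a replicate block, RTL1 stood 1.99-fold above WT with NCTAD, 1.73-fold with cIDR and 1.51-fold with FL. DLK1 was 1.48-fold higher in NCTAD and 1.33-fold in cIDR. The tests of these values follow the values themselves.

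RTL1 in batch 1 was at 37 CPM in WT, at 56.9 with FL, at 69.3 with NCTAD and at 65.7 with cIDR. Batch 2 gave 110 CPM in WT, 160 with FL, 161 with NCTAD and 166 with cIDR. Batch 3 gave 23.7, 35.8, 56.7 and 47.2 CPM in the same order of groups, and batch 4 gave 21.4, 34, 51.6 and 37.3 CPM. WT was the lowest library of each batch, and the 4 libraries of batch 2 were above all 12 others. The groups overlapped when batches were set aside, because the WT library of batch 2 exceeded all transfected libraries of batches 1, 3 and 4. In NCTAD the ratio to the WT library of the same batch was 1.87, 1.46, 2.39 and 2.41 in batches 1 to 4, and in FL it was 1.54, 1.45, 1.51 and 1.59. The FL differences were thus nearly the same in each batch (0.60 ± 0.06 in log2 CPM, SD, n = 4), whereas those of NCTAD spread more widely (0.99 ± 0.34, SD, n = 4).

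DLK1 in batch 1 stood at 2080 CPM in WT, 2470 with FL, 3720 with NCTAD and 3050 with cIDR. In batch 2 it was at 2910, 3960, 4100 and 4150 CPM in the same order of groups. Batch 3 gave 1650, 1660, 2090 and 1870 CPM, and batch 4 gave 1440, 1850, 2160 and 1900 CPM. WT was again lowest in each batch, by as little as 1.01-fold against FL in batch 3. The NCTAD and cIDR libraries of batch 1 reached into the range of batch 2, so the batches overlapped for DLK1.

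DIO3 in batch 1 was at 0.355 CPM in WT, 0.947 with FL, 2.46 with NCTAD and 1.25 with cIDR. Batch 2 gave 3.39, 6.07, 6.08 and 6.55 CPM in that order. Batch 3 gave 0.29, 0.688, 1.32 and 0.913 CPM, and batch 4 gave 0.659, 0.797, 1.74 and 0.971 CPM. As for RTL1, WT was lowest in every batch and batch 2 lay above all other libraries. In batches 1, 3 and 4 the 3 coding genes shared 1 order, with NCTAD highest, then cIDR, FL and WT. In batch 2 cIDR was highest for all 3, and the 3 transfected libraries lay close together. EPAS1 itself was highest in the cIDR library in each of the 4 batches.

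**Figure D1:**
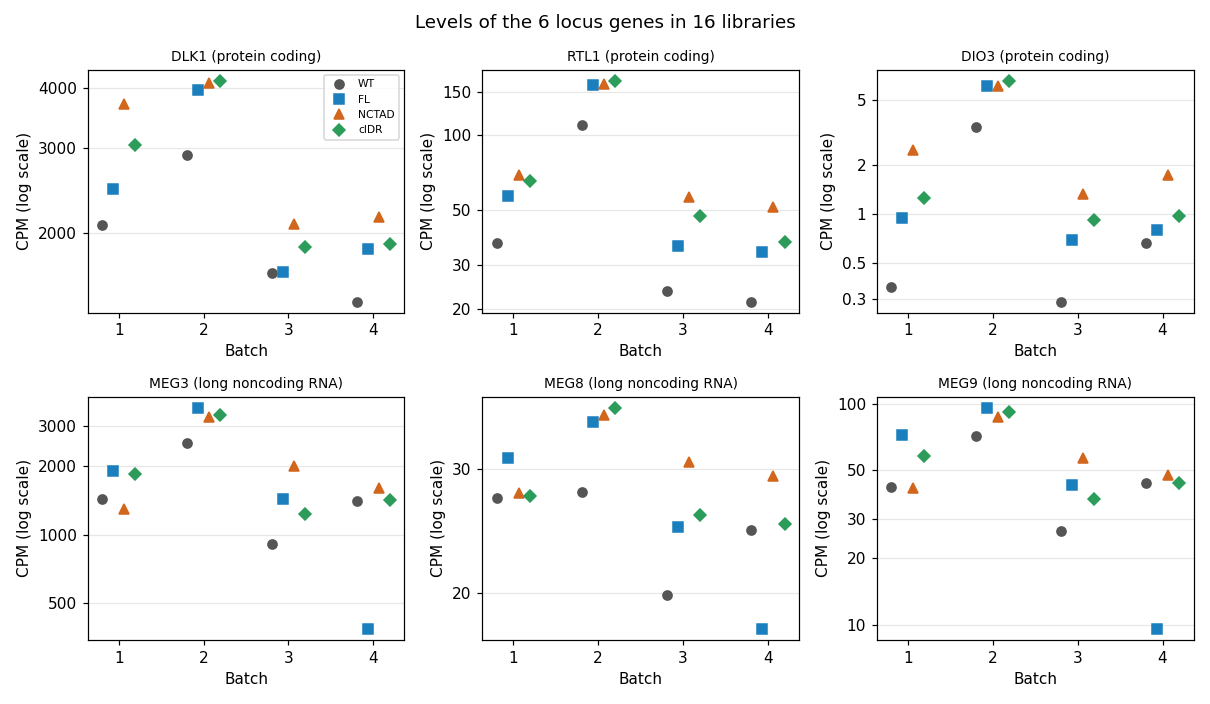
CPM on a log axis of each gene in the 16 libraries, by batch, with 1 point per library and colours for the groups. WT is the lowest point of every batch for DLK1, RTL1 and DIO3, all points of batch 2 are above the others for RTL1, DIO3 and MEG3, and the FL library of batch 4 is lowest for MEG3 (387 CPM), MEG8 and MEG9 (9.6 CPM).

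The maternal noncoding RNAs followed the groups less regularly. MEG3 in batch 1 was at 1430 CPM in WT, 1900 with FL, 1290 with NCTAD and 1850 with cIDR, and at 2530, 3590, 3280 and 3350 CPM in batch 2. Batch 3 gave 913, 1430, 1990 and 1230 CPM in the same order, and batch 4 gave 1410, 387, 1600 and 1420 CPM. NCTAD was below WT in batch 1 and highest in batches 3 and 4, while FL was highest in batches 1 and 2 and far lowest in batch 4.

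MEG9 was at 42.3, 72.7, 41.5 and 58.4 CPM in WT, FL, NCTAD and cIDR of batch 1, and at 71.9, 95.9, 87.5 and 91.6 CPM in batch 2. It was at 26.6, 42.8, 57 and 37.1 CPM in batch 3, and at 44, 9.6, 47.8 and 43.8 CPM in batch 4. As for MEG3, the FL library of batch 4 was lowest and the FL library of batch 2 highest, but the FL library of batch 1 was above the WT library of batch 2.

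MEG8, which hosts small nucleolar RNAs, varied least. It was at 27.3, 31.1, 27.7 and 27.5 CPM in WT, FL, NCTAD and cIDR of batch 1 and at 27.8, 35, 35.8 and 36.6 CPM in batch 2. It was at 19.9, 24.8, 30.7 and 25.8 CPM in batch 3 and at 24.6, 17.8, 29.3 and 25.1 CPM in batch 4. Groups and batches overlapped, and the highest library exceeded the lowest 2.06-fold, against 7.76-fold for RTL1, 9.28-fold for MEG3 and 22.6-fold for DIO3.

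The first question was whether each form of HIF-2α changed the locus against WT. The 3 comparisons share the 4 WT libraries, so their values are not independent of each other. RTL1 was chosen on NCTAD against WT, and its differences in FL and cIDR reuse those WT libraries, so they are given as values and the calls are counted over the 5 other members. In the model with group as the only term, edgeR called 0 members in any of the 6 comparisons between groups, with 0 at an unadjusted p under 0.05. That model called 0.0102% of all tested genes in FL against WT, 0.0256% in NCTAD and 0.0102% in cIDR. DESeq2 without the block, limma on log2 TPM and the other settings without the block also called 0 members. The fitted SE of RTL1 against WT was 0.63 in log2, close in size to the differences of 0.57 to 0.81, since the spread between batches entered it.

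The batch label is shared across groups, and with it as a replicate block the SE of RTL1 fell to 0.10. In FL against WT the blocked fit called 0 of the 5 other members, where 0.102% of all tested genes were called. RTL1 differed by 0.60 ± 0.10 (log2 ± SE, above WT in 4 of 4 batches). DLK1 differed by 0.27 ± 0.08 (adjusted p = 0.616) and DIO3 by 0.86 ± 0.26 (adjusted p = 0.626), both without passing the test. These 2 had an unadjusted p under 0.05, as 5.11% of all tested genes did. The RTL1 difference was 0.52 to 0.69 when 1 library of the pair was left out, and 0.60 without the whole of batch 2.

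In NCTAD against WT, RTL1 differed by 0.99 ± 0.10, the value for which it was put forward. Of the 5 other members, 2 were called, DLK1 and DIO3, where the blocked fit called 0.456% of all tested genes. DLK1 was higher by 0.57 ± 0.08 (adjusted p = 0.00298) and DIO3 by 1.71 ± 0.26 (adjusted p = 0.00478), both in 4 of 4 batches. The DIO3 ratios to WT were 6.94, 1.79, 4.56 and 2.65 in batches 1 to 4. Both calls held whichever single library of the pair was left out, with adjusted p up to 0.0287 for DLK1 and 0.0308 for DIO3. The size of the DIO3 difference depended on the scale: limma with the block gave 0.75 on log2(TPM + 1) and 1.48 on log2(TPM + 0.1), since the pseudocount weighs on a gene this low.

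In cIDR against WT, 1 of the 5 other members, DLK1, was called with the block, where 0.486% of all tested genes were called. DLK1 was higher by 0.41 ± 0.08 (adjusted p = 0.0359), in 4 of 4 batches. RTL1 differed by 0.79 ± 0.10, also above WT in 4 of 4 batches. DIO3 differed by 1.14 ± 0.26 (adjusted p = 0.0921) without passing the test. On log2(TPM + 1) its blocked differences were 0.48 in cIDR and 0.36 in FL against WT. The RTL1 difference was 0.73 to 0.88 when 1 library of the pair was left out. The DLK1 call was lost in 7 of 8 such fits, all except the WT library of batch 3, and without batch 2.

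DESeq2 and limma with the block were added after seeing the data. Of the 5 other members, DESeq2 called 0 in FL, and DLK1 and DIO3 in both NCTAD and cIDR against WT, where it called 1.21%, 1.44% and 1.36% of its 36718 genes. Limma on log2(TPM + 1) called 0 of them in FL, DIO3 in NCTAD and 0 in cIDR, where it called 0.0819%, 0.184% and 0.251% of genes. On log2(TPM + 0.1) it called the same members, and 0.0819%, 0.241% and 0.241% of genes. Without batch 2, edgeR with the block called 0, 2 (DLK1 and DIO3) and 0 of them, and 0.0838%, 0.325% and 0.241% of genes.

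A few markers of catecholamine-producing cells passed the same blocked tests. The median log2 difference of the adrenergic list was 0.034 with FL, 0.032 with NCTAD and 0.054 with cIDR, and that of the chromaffin list 0.101, -0.004 and 0.032. The blocked fits called 0.102%, 0.456% and 0.486% of all tested genes with FL, NCTAD and cIDR, against which the counts of these short lists are set. Of 10 adrenergic markers, 0 were called with FL, and DBH and TH, which encode enzymes of catecholamine synthesis, were called with NCTAD (log2 differences of 0.61 ± 0.07 and 1.27 ± 0.17) and cIDR (0.51 ± 0.07 and 1.06 ± 0.17). Of 3 chromaffin markers, SLC18A1, a vesicular monoamine transporter gene, was called in each, at 0.53 ± 0.08 with FL, 0.59 ± 0.08 with NCTAD and 0.70 ± 0.08 with cIDR. Of 4 endothelial markers, VWF was called with cIDR (1.65 ± 0.34), while that list summed to at most 2.34 CPM in any library. The summed adrenergic markers ran from 6940 to 7980 CPM in WT, 7560 to 9020 with FL, 7340 to 8640 with NCTAD and 7530 to 8510 with cIDR, and 0 mesenchymal, Schwann or leukocyte markers were called. The part of these markers in the member values was not tested.

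MEG3, MEG8 and MEG9 did not pass the test in any comparison between groups, with or without the block. With it, MEG3 differed from WT by 0.05 ± 0.32 with FL, 0.39 ± 0.32 with NCTAD and 0.28 ± 0.31 with cIDR, and MEG9 by 0.12 ± 0.36, 0.37 ± 0.35 and 0.29 ± 0.35. MEG8 differed by 0.10 ± 0.12, 0.32 ± 0.12 and 0.20 ± 0.12. With NCTAD, MEG8 was above WT in 4 of 4 batches, as 8.86% of the tested genes were. Its unadjusted p in the blocked edgeR test was 0.0185 (adjusted p = 0.656), where 1164 of 19530 tested genes had an unadjusted p under 0.05. The SE of MEG3 and MEG9 was about 3 times that of RTL1, so changes of the size seen for RTL1 were not detectable in them at this spread. Without the FL library of batch 4, the FL differences became 0.43 for MEG3, 0.23 for MEG8 and 0.54 for MEG9, with adjusted p of 0.527, 0.527 and 0.501.

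**Figure D2:**
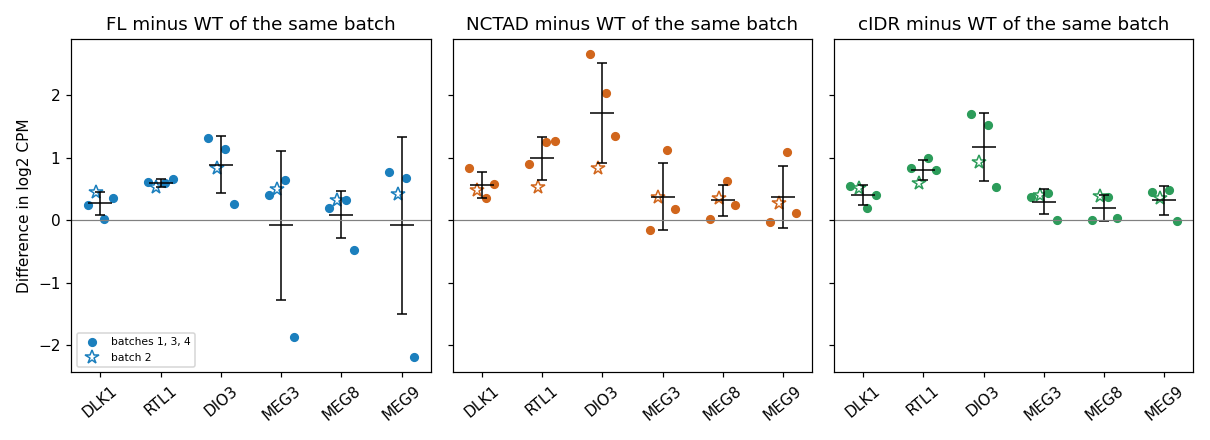
Difference in log2 CPM between each transfected library and the WT library of its batch, 1 panel per construct and 4 points per gene, with black bars for the mean and SD (n = 4) and open stars for batch 2. All points of DLK1, RTL1 and DIO3 are above 0, and the points of MEG3 and MEG9 in FL of batch 4 lie at -1.86 and -2.19.

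The constructs were then compared with each other. With the block, edgeR called 0 members in NCTAD against FL, cIDR against FL and cIDR against NCTAD, where it called 0%, 0.0307% and 0.00512% of all tested genes. In NCTAD against FL, 2 of the 5 members other than RTL1, DLK1 and DIO3, had an unadjusted p under 0.05, as 3.69% of all tested genes did. RTL1 differed by 0.39 ± 0.10, and DLK1 by 0.30 ± 0.08 and DIO3 by 0.85 ± 0.24, the last 2 with an adjusted p of 0.996. All 3 were higher in NCTAD in 4 of 4 batches, as 6.02% of the tested genes were, but in batch 2 the ratios were only 1.01, 1.04 and 1. Of those 5, DESeq2 with the block called DLK1 (adjusted p = 0.0122) in this comparison, where it called 1.2% of its 36718 genes. The call of DLK1 thus depended on the tool. RTL1 is again given as a value, because this comparison reuses the NCTAD libraries that chose it.

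In cIDR against FL, 0 members had an unadjusted p under 0.05, against 3.68% of all tested genes, with RTL1 at 0.20 ± 0.10, DLK1 at 0.14 ± 0.08 and DIO3 at 0.28 ± 0.25. In cIDR against NCTAD, RTL1 stood at -0.20 ± 0.10, DLK1 at -0.16 ± 0.08 and DIO3 at -0.57 ± 0.24, and 1 of the 5 members other than RTL1, DIO3, had an unadjusted p under 0.05, as 2.15% of all tested genes did. These 3 comparisons share libraries with each other and with those against WT.

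The batches were compared next. In the F test over the 4 batches with group in the model, edgeR called 6 of 6 members, against 53.1% of all tested genes, with 26% called with a higher and 27% with a lower level in batch 2. Most tested genes were called, so the count of 6 is to be read against that share. The test draws on the libraries for which batch 2 was singled out, so its p-values are not given.

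Batch 2 exceeded the mean of the other batches by 1.81 ± 0.07 for RTL1, 0.84 ± 0.06 for DLK1 and 2.58 ± 0.18 for DIO3 (log2 ± SE). The noncoding RNAs were higher there by 1.21 ± 0.24 for MEG3, 1.02 ± 0.27 for MEG9 and 0.38 ± 0.09 for MEG8. In linear terms RTL1 was 3.51-fold and DIO3 6-fold higher, while MEG8 was 1.3-fold higher. RTL1, MEG3 and DIO3 had all 4 libraries of batch 2 above all 12 others, as 14.4% of the tested genes did. Of the 6 members, 4 (RTL1, DIO3, MEG3 and MEG9) had a fitted difference of at least 1, which 7.8% of the tested genes reached. These shares are given as description, because batch 2 was singled out from these data.

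On log2 CPM the rise in batch 2 was present in each group taken alone. On TPM this did not hold for MEG8, where WT was at 23.8 TPM in batch 2 and at 42.1, 29 and 33.9 TPM in batches 1, 3 and 4. For RTL1 the library of batch 2 exceeded the mean of the other 3 by 2.05 in WT, 1.96 with FL, 1.45 with NCTAD and 1.77 with cIDR (log2 CPM). For DIO3 the same values were 2.92, 2.85, 1.74 and 2.61, and for DLK1 they were 0.77, 1.01, 0.68 and 0.90. The smallest was in NCTAD for RTL1, DIO3 and DLK1. The untransfected cells of batch 2 thus had more RTL1 (110 CPM) than any transfected library outside that batch (at most 69.3 CPM).

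Without batch 2, the F test called 1 of the 5 members other than RTL1, DLK1 (adjusted p = 0.00141), where it called 5.91% of genes. RTL1 is given as values, because these libraries include those that chose it. Both were highest in batch 1 of the remaining batches by their means, with RTL1 at 57.2 ± 14.5 CPM (SD, n = 4) against 40.9 ± 14.3 in batch 3 and 36.1 ± 12.4 in batch 4. DLK1 was at 2830 ± 717 CPM in batch 1 against 1820 ± 209 and 1840 ± 298. The call of MEG8 over the 4 batches was lost without the cIDR library of batch 2 and on TPM. That of MEG9 was lost without the WT, FL or cIDR library of batch 2.

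Most of the listed hypoxia-induced genes were higher in batch 2. Their batch values are given as description, because batch 2 was singled out from these data and the list was chosen with earlier results known. Of 12 listed, 11 were called by the batch F test with a higher level in batch 2, as 26% of all tested genes were, among them NDRG1 (3.27 ± 0.23), PDK1 (2.81 ± 0.08), PFKFB4 (2.24 ± 0.05), CA9 (1.96 ± 0.30), BNIP3 (1.73 ± 0.06) and VEGFA (1.50 ± 0.08). ANKRD37, ADM, EGLN3, BHLHE40 and KDM3A were higher by 1.27 ± 0.15, 0.84 ± 0.16, 0.76 ± 0.07, 0.70 ± 0.06 and 0.49 ± 0.04. With the block, 1 of the 12 was called higher against WT with FL, 7 with NCTAD and 8 with cIDR, against 0.102%, 0.456% and 0.486% of all tested genes, including BHLHE40 in each (0.78 ± 0.08, 0.93 ± 0.08 and 1.11 ± 0.08). In the batch comparison the glucose transporter gene SLC2A1 differed by 0.05 ± 0.10 and was not called. EPAS1 in WT was at 28.1 CPM in batch 2 and at 13, 17.3 and 14.3 CPM in batches 1, 3 and 4. In the transfected libraries it was at 1320 to 2190 CPM in batch 2 and at 1690 to 5850 CPM elsewhere. The summed mesenchymal or fibroblast markers were at 74.6 to 79.2 CPM in batch 2 and at 31 to 43.7 CPM elsewhere, with 4 of 4 tested markers called higher. The summed endothelial markers were at 1.17 to 2.34 CPM there and at 0.125 to 0.913 CPM elsewhere, and adrenergic markers summed to 6940 to 7560 against 7390 to 9020 CPM. Chromaffin markers summed to 1100 to 1290 CPM in batch 2 and 770 to 1040 elsewhere, without overlap, and Schwann markers to 5.25 to 6.15 against 3.29 to 5.63 CPM. Leukocyte markers summed to 0.157 to 0.475 against 0.0626 to 0.633 CPM. The part of any of these in the member values was not tested, and in bulk RNA fewer cells of a type and less RNA per cell cannot be told apart.

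**Figure D3:**
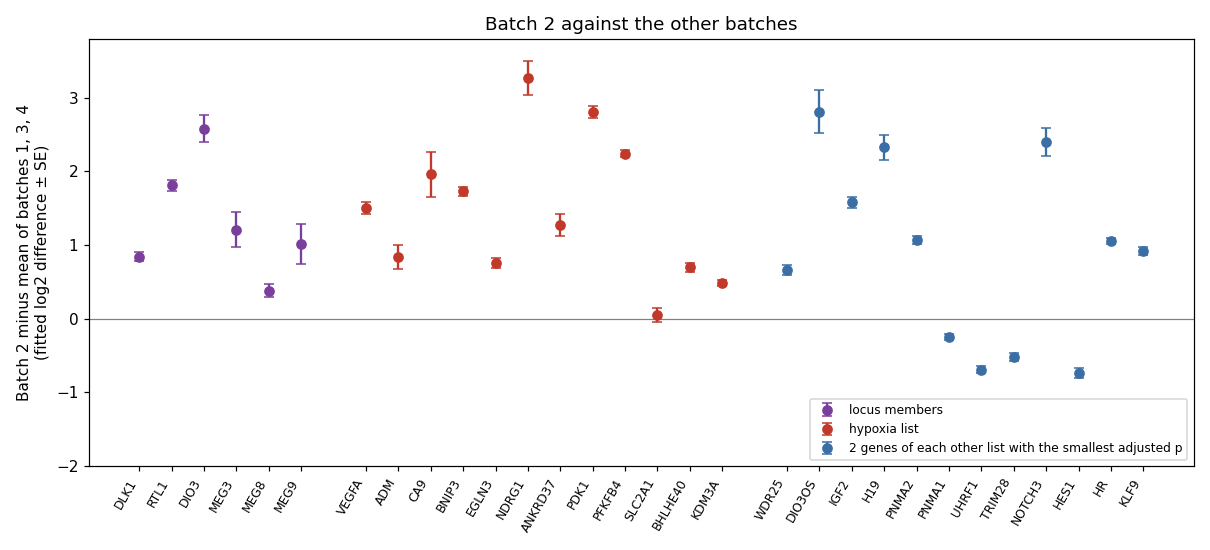
Fitted log2 difference of batch 2 from the mean of batches 1, 3 and 4, with its SE, for the 6 members, the 12 hypoxia genes and the 2 genes of each other list with the smallest adjusted p. DIO3 (2.58) and RTL1 (1.81) are the highest members and MEG8 (0.38) the lowest.

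The RNAs of the locus kept different proportions to each other. Counts of MEG9 were 2.48% to 3.83% of those of MEG3 in all 16 libraries, although both genes varied more than 9-fold. In contrast, MEG8 ran from 0.976% to 4.6% of MEG3, or to 2.18% without the FL library of batch 4, and was at 0.976% to 1.1% in batch 2 against at least 1.49% elsewhere. RTL1 was at 3.79% to 4.03% of DLK1 counts in batch 2 and at 1.44% to 2.71% in the other batches, so the pair of coding genes did not rise in the same proportion. MEG3 ran from 20.9% of DLK1 counts in the FL library of batch 4 to 97.7%, and from 34.8% without that library.

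Correlations across libraries are given as description, and the libraries share batches and depth. Since batch 2 forms a cluster of its own, they are over the 12 libraries outside it. Pearson's r of log2 CPM was 0.99 for MEG3 with MEG9, 0.911 for MEG3 with MEG8 and 0.867 for RTL1 with DLK1. RTL1 with DIO3 gave 0.778 and DLK1 with DIO3 gave 0.677. Coding genes paired with noncoding RNAs gave 0.44 for RTL1 with MEG3, 0.293 for DLK1 with MEG3 and 0.289 for DIO3 with MEG3. Such pairs ran from 0.288 for DIO3 with MEG9 to 0.669 for RTL1 with MEG8. By rank the split was not kept: Spearman's rho was 0.846 for RTL1 with MEG8 and 0.832 for DLK1 with MEG8, above 0.797 for DLK1 with DIO3 and 0.713 for MEG8 with MEG9.

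In the FL library of batch 4 the noncoding RNAs and the coding genes went in opposite directions. Against the WT library of its batch it held 0.275 times the MEG3, 0.218 times the MEG9 and 0.723 times the MEG8, but 1.29 times the DLK1 and 1.59 times the RTL1. A pair of other nuclear long noncoding RNAs, chosen after their values were seen, was also lowest there. MALAT1 was at 27.5 CPM in that library and at 50.1 to 114 CPM in the other 15, and NEAT1 at 46.2 CPM against 94.4 to 247 CPM. The NCTAD library of batch 1, in which MEG3 was below WT, was the next lowest for both, at 50.1 and 94.4 CPM. In batch 2, NEAT1 was at 226 to 247 CPM and elsewhere at most at 201 CPM, without overlap, as for MEG3. MALAT1 was at 85.2 to 101 CPM in batch 2, within the range of the other batches. Whether these levels have a part in the MEG3 values was not tested.

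**Figure D4:**
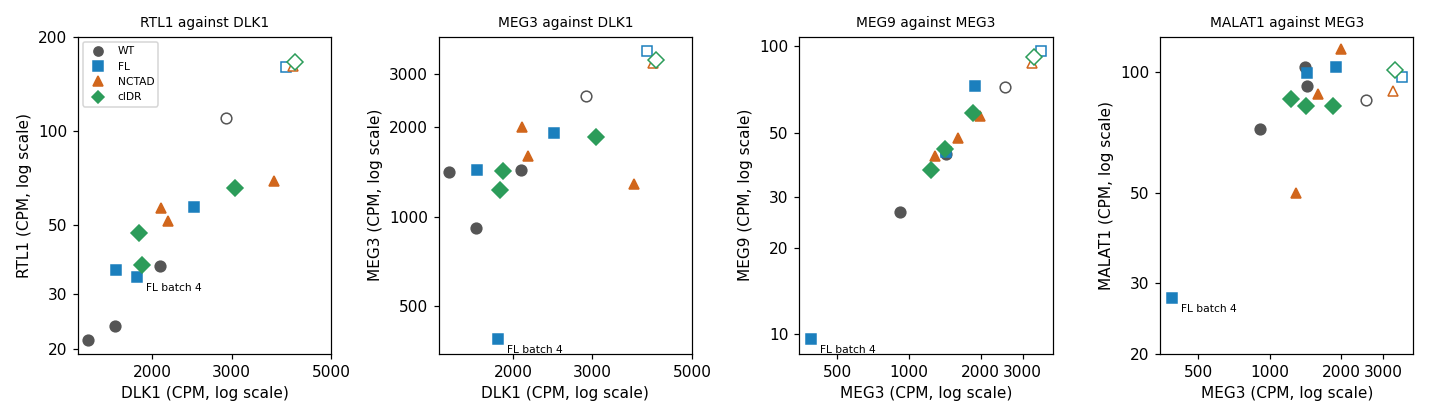
CPM of pairs of genes in the 16 libraries on log axes, with open symbols for batch 2 and the FL library of batch 4 named. RTL1 rises with DLK1 and MEG9 with MEG3, while the FL library of batch 4 lies far below the others in MEG3 (387 CPM) and MALAT1 (27.5 CPM) but not in DLK1 (1850 CPM).

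Genes with a pattern most like each member were found by Pearson's r of log2 CPM over the 16 libraries, among genes with a symbol and a mean log2 CPM of at least 1. These values rest partly on batch 2, so r without it is given beside them. For RTL1 the 3 nearest genes were ARID3A (0.987, and 0.964 without batch 2), IGF2 (0.985 and 0.942) and MYADM (0.977 and 0.918). IGF2, a fetal growth factor gene, is itself imprinted and read from the paternal chromosome, on another chromosome. DLK1 was nearest to TAGLN2 (0.973 and 0.964), RD3 (0.973 and 0.947) and XPNPEP1 (0.972 and 0.939).

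DIO3 was nearest to SMIM3 (0.96 and 0.857), ZNF395 (0.957 and 0.926) and LOXL2 (0.955 and 0.862). MEG3 was nearest to MEG9 (0.985 and 0.99), ADGRB3-DT (0.966 and 0.956) and SRCIN1 (0.961 and 0.923), and MEG9 to MEG3, FHIP2B (0.966 and 0.944) and ZDHHC8 (0.954 and 0.954). MEG8 was nearest to MEG3 (0.933 and 0.911), MEG9 (0.926 and 0.908) and TRAF5 (0.91 and 0.875). Members thus led the lists of the noncoding RNAs but not those of the coding genes.

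Of 34 other imprinted genes, 26 were tested. With the block, 0 were called in FL against WT, 2 were higher in NCTAD and 1 in cIDR, and 0 were lower, where 0.102%, 0.456% and 0.486% of all tested genes were called. The list's median log2 difference was 0.02 with FL, 0.04 with NCTAD and 0.04 with cIDR, against 0.01, 0.02 and 0.01 over all tested genes. IGF2 was at 2660, 6440, 1980 and 1850 CPM in WT of batches 1 to 4, and at 4660, 9250, 3630 and 3590 CPM in NCTAD. NCTAD was above WT in each batch, and both groups were highest in batch 2. IGF2 was higher by 0.80 ± 0.09 in NCTAD (adjusted p = 0.00035) and by 0.55 ± 0.09 in cIDR (adjusted p = 0.0078). GNAS, which encodes the stimulatory G protein subunit, was higher by 0.29 ± 0.06 in NCTAD (adjusted p = 0.0359).

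By batch, 9 of the 26 imprinted genes were called with a higher and 7 with a lower level in batch 2, against 26% and 27% of all tested genes, with a median of 0.06. IGF2 was higher there by 1.58 ± 0.07 and H19, the maternal noncoding RNA next to it, by 2.33 ± 0.17. H19 ran from 4.54 to 6.68 CPM in batch 2 and from 0.417 to 1.97 CPM elsewhere.

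The list of noncoding transcripts inside the locus and of its neighbours held 14 genes, of which 11 were tested and 0 were called in any comparison between groups. By batch 6 were higher and 4 lower in batch 2, against 26% and 27% of all tested genes, with a median of 0.12. DIO3OS, the RNA antisense to the DIO3 region, was higher by 2.81 ± 0.29 and ran from 2.76 to 6.34 CPM in batch 2 and from 0.0965 to 1.28 CPM elsewhere. WDR25, a coding gene upstream of DLK1, was higher by 0.66 ± 0.07. MIR493HG, chosen after its values were seen because its transcript unit spans the RTL1 gene on the plus strand, ran from 3.38 to 7.87 CPM and was higher in batch 2 by 0.71 ± 0.11.

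Other lists tied to the functions of the members were called in 0 comparisons between groups. Of 19 genes in the family of retrotransposon-derived capsid genes to which RTL1 belongs, 15 were tested, with 4 higher and 5 lower in batch 2. The 26% and 27% of all tested genes that were called higher and lower there are the background for this and the next 3 lists. PNMA2 was higher by 1.07 ± 0.05 and PNMA1 differed by -0.25 ± 0.04. Of 24 Notch receptors, ligands and targets, the pathway that DLK1 is thought to modulate, 19 were tested, with 5 higher and 9 lower in batch 2. The receptor gene NOTCH3 was higher by 2.40 ± 0.19, while the target gene HES1 fell by 0.74 ± 0.07.

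Of 13 genes of thyroid hormone handling, the process in which DIO3 acts, 7 were tested, with 6 higher and 0 lower in batch 2, against 26% and 27% of all tested genes. HR, a corepressor gene, was higher by 1.05 ± 0.04 and KLF9, a known thyroid hormone target, by 0.92 ± 0.05. Of 20 factors that maintain imprints or silence such loci, 17 were tested, with 3 higher and 8 lower in batch 2. UHRF1 and TRIM28, which act in keeping DNA methylation and in repression at imprinted sites, fell by 0.69 ± 0.05 and 0.52 ± 0.05. The medians over these 4 lists in batch 2 were -0.01, -0.04, 0.24 and -0.04, in the order given.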

How the data were processed

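RNA was measured in 16 libraries, 4 per group, from cells of an established line. Poly(A) selection and stranded libraries from 250 ng RNA with 13 PCR cycles are given per the labels' protocols. The authors deposited estimated counts per gene (15.5% not whole, to a tolerance of 0.0005) and TPM, both from salmon by the name of the tables. The submitters' processing notes name fastp, STAR, Salmon, featureCounts and GRCh38. Column names call the line BE2c where the labels give SK-N-BE(2), the WT group control, the FL group WT and the NCTAD group NTAD, and the labels were followed. Versions, the annotation release and the strand setting are not given in the sources used here, so how the counting assigned reads where genes overlap on opposite strands is unknown.

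Counts were rounded, genes filtered with filterByExpr by group, and groups compared with the quasi-likelihood F test of edgeR 4.0.16 (R 4.3.3), TMM scaling, group as the only term over 16 libraries, and Benjamini-Hochberg adjustment over 19530 genes, called under 0.05. CPM use TMM-scaled totals, and log2 CPM a prior count of 2. Scripts were tested on simulated data. The batch label pairs the libraries: deviations from group means correlated at a mean r of 0.308 within a number (0.0674 to 0.712) and -0.0945 between numbers. The biological coefficient of variation was 0.245 without and 0.108 with the block. Alternatives were the block, DESeq2 1.42.0, size factors, filters, limma 3.58.1 on log2(TPM + 1) and log2(TPM + 0.1), only the 2 groups compared, and left-out libraries. DESeq2 and limma with the block were added after seeing the data.

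The members and lists were chosen with earlier results of these data known. Named were the 6 members, EPAS1, up to 2 called genes per list and comparison with the smallest adjusted p, the hypoxia list beside batch results, and the 3 genes most like each member. Positions come from GENCODE 29 and sequences from RefSeq. Promoters were matched for 4 of 6 members, not for DLK1 and MEG8.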

Additional observations from a re-analysis of the deposited data

Results flagged for a closer look

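Of 24 sets of 4 libraries, 1 for each member and group, 4 had a library far from the other 3, where chance gives about 1 in 20. All 4 were libraries of batch 2, which was singled out for its high levels, and the sets share batches, so this restates that choice. RTL1 in the NCTAD library was at 161 CPM, with the nearest library of its group at 69.3 CPM. DIO3 was at 3.39 CPM in WT (nearest 0.659), 6.07 CPM in FL (nearest 0.947) and 6.55 CPM in cIDR (nearest 1.25).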

How the results depend on the processing

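Without the block, 0 members were called in each comparison between groups under each setting run. With the replicate block, 1, 2 and 2 members were called against WT in FL, in NCTAD (RTL1 not counted) and in cIDR, and 0 between constructs. The block changed no other call. DESeq2 with the block called 1, 2 and 3, and 2 in NCTAD against FL. Limma on log2 TPM with the block called 0, 1 and 1, for either pseudocount. The block without batch 2 called 1, 2 and 1. Outside NCTAD against WT these counts include RTL1, which was chosen on the WT and NCTAD libraries. Without it they are 0, 2 and 1 for edgeR, 0, 2 and 2, and 1 in NCTAD against FL, for DESeq2, 0, 1 and 0 for limma, and 0, 2 and 0 without batch 2. Over all 6 members, the batch test without batch 2 called 2 (1 without RTL1). Leaving out 1 library with the block gave 0 to 1 call in FL (0 without RTL1), 2 in each fit of NCTAD and 1 to 2 in cIDR against WT (0 to 1 without RTL1), and 4 to 6 in the batch test. Such fits hold fewer libraries; the cause of a lost call was otherwise not tested.

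None of the values that changed sign was called. On log2 TPM, with or without the block, MEG3 in FL against WT was at -0.05, MEG9 at -0.11 or -0.13, and MEG8 in cIDR against FL at -0.07. With the block and without batch 2, FL against WT gave -0.15 for MEG3, 0 for MEG8 (to 2 decimals) and -0.02 for MEG9. Leaving out 1 library, without the block, gave these log2 ranges where a sign changed. In cIDR against FL, -1.03 to 1.58 for DIO3, -0.13 to 0.45 for DLK1, -0.28 to 0.66 for MEG3, -0.07 to 0.22 for MEG8, -0.28 to 0.47 for MEG9 and -0.51 to 0.91 for RTL1. In cIDR against NCTAD, -1.47 to 0.41 for DIO3, -0.41 to 0.04 for DLK1, -0.44 to 0.27 for MEG3, -0.33 to 0.24 for MEG9 and -0.76 to 0.42 for RTL1. In cIDR against WT, -0.19 to 2.48 for DIO3 and -0.07 to 0.65 for MEG3. In FL against WT, -0.55 to 2.29 for DIO3, -0.01 to 0.53 for DLK1, -0.35 to 0.54 for MEG3, -0.02 to 0.26 for MEG8, -0.15 to 0.59 for MEG9 and -0.19 to 1.38 for RTL1. In NCTAD against FL, -0.21 to 1.83 for DIO3, -0.17 to 0.72 for MEG3, -0.26 to 0.49 for MEG9 and -0.27 to 1.00 for RTL1. With the block, leaving out 1 library turned the sign of noncoding RNAs alone. In FL against WT, this was MEG3 at -0.02, -0.13, -0.15, -0.11 and -0.05 and MEG9 at -0.05, -0.18 and 0. In NCTAD against FL, this was MEG3 at -0.04 and MEG9 at -0.17. In cIDR against FL, this was MEG3 at -0.15, MEG8 at -0.04 and MEG9 at -0.23. In cIDR against NCTAD, this was MEG3 at 0.06 and 0.01 and MEG9 at 0.09, 0.04 and 0.01. The difference of batch 2 in MEG8 was 0.12 or 0.13 on log2 TPM, where the batch test did not call it, against 0.38 on counts, and that of DIO3 was 1.6 on log2(TPM + 1).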
